A study of Mus musculus with 2 samples.

Results

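Interferon-induced genes outside the histocompatibility complex and the Ifi200 family were followed in sorted luminal cells, the keratin 8 epithelium of the mouse mammary gland. The members were a list of 43 gene symbols matched by name, and the rule used no measured value, although the list was drawn up with earlier results of these data known. Of these, 41 of the 16906 genes in the deposited table were found by symbol; Mx1 and Mx2 were not analysed here. Of the 41 genes, 35 were measured, meaning a mean of at least 1 FPKM over both libraries (FPKM, a read level corrected for transcript length and sequencing depth). The other 6, which were Gbp5, Gbp9, Tgtp1, Tgtp2, Ifit2 and Ifit3, lay below that mean.

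The Ctrl library came from miR-200c/141-flox/flox mice, which carry the floxed microRNA cluster and no Cre. The CKO library came from K8-CreERT2;miR-200c/141-flox/flox mice, in which tamoxifen activates a Cre recombinase under the keratin 8 promoter. Both groups were 8 weeks old, C57BL/6 by their label, and received tamoxifen; the labels give the interval after it as 4 weeks in one place and 3 days in another. Cre was present in CKO alone, so its own effects and those of the deletion cannot be told apart. How far the cluster was deleted in the sorted cells was not analysed here. There was 1 library per group, the number of mice behind each is not given in the sources used here, and the spread between animals is therefore unknown for every difference given below.

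The deposited p-values implied about 12500000 reads for Ctrl and 11400000 for CKO. The 9 luminal markers fixed for the check were all present, from 16.29 FPKM (Kit) to 6606.79 (Krt18) in Ctrl and from 17.23 to 10398.36 in CKO. Among 7 measured basal myoepithelial markers, CKO was higher by 1.5-fold or more in 5 and lower in 1 (Trp63, 2.96 and 1.05 FPKM). Of all measured genes, 2.47% were higher and 3.15% lower by as much. The 8 basal markers analysed summed to 103 FPKM in Ctrl and 196 in CKO. Of 6 endothelial and 4 fibroblast markers measured, 0 passed 1.5-fold. The fibroblast markers Lum (1.16 and 0.38 FPKM) and Pdgfra (1.05 and 0.31), under the minimum mean, were lower in CKO. No T, NK or B lymphocyte marker reached 1 FPKM in either library (12 analysed, summed FPKM of 2.46 in Ctrl and 2.26 in CKO). In bulk RNA, fewer cells of a type and less RNA per cell cannot be told apart.

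Interferons are secreted proteins that put cells into an antiviral and antimicrobial state. Type I interferons (alpha and beta) bind the receptor pair of Ifnar1 and Ifnar2, and activate a complex with STAT2 and IRF9 that reads the interferon-stimulated response element (ISRE); the Ifit, Oas and Mx genes are its classic targets. Interferon gamma binds Ifngr1 and Ifngr2, and its signal is read at the gamma-activated site (GAS). The GTPases of the Gbp and Irg families, which attack the vacuoles of intracellular parasites, are its classic targets in mouse. The division is one of degree, since many of these genes answer to both kinds of interferon.

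Promoter sequences of the Gbp and Irg genes are set beside those of the Ifit and Oas genes, since both pathways are read from short DNA motifs. RefSeq windows on GRCm38.p6, from 250 bases before to 50 after a start site, were found for 32 members. They were searched on both strands for the ISRE letters (GAAA, any 2 bases, GAAA) and the GAS letters TTCNNNGAA, and neighbouring matches were allowed to overlap. At least 1 window held the ISRE letters in 20 of the 32 members (62.5%), against 3.99% of 27025 genes. The GAS letters stood in 13 of 32 (40.6%), against 9.55% of all genes. Of 10 Gbp and Irg members with a window, 9 held the ISRE letters and 6 the GAS letters, and those 6 held both. Of 5 Ifit and Oas members, 3 held the ISRE letters, 2 the GAS letters, and 1 both. A match describes letters only and shows no binding.

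Igtp, Irgm2, Tgtp1 and Tgtp2 share 1 layout, in which the first base of the GAS letters lies 11 bases before the first base of the ISRE letters on the same strand. Across all 27025 genes this spacing, in either orientation, was found in 5 (0.0185%). The fifth was Gm12185, a GTPase locus on chromosome 11 that was not a member and stood at 0.06 (Ctrl) and 0.05 FPKM (CKO). The spacing was noticed in the sequences and then counted. The bases around it are nearly the same in Igtp and Irgm2, and much alike in Tgtp1 and Tgtp2, so the 4 promoters are not independent of each other. The 120 bases before the start site follow for these 4 genes and for 3 more GTPase members, to set the shared layout beside other arrangements. Bases matching either motif are in capitals, and each sequence is read 5′ to 3′ on the strand of its gene. They lie at chr11:58199436-58199555 (Igtp, plus strand), chr11:58214857-58214976 (Irgm2, plus), chr11:48992247-48992366 (Tgtp1, minus), chr11:49064213-49064332 (Tgtp2, minus), chr11:48871421-48871540 (Irgm1, minus), chr3:142620543-142620662 (Gbp2, plus) and chr3:142530216-142530335 (Gbp7, plus).
Igtp: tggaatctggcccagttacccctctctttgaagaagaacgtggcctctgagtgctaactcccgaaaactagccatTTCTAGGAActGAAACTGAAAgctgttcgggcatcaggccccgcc
Irgm2: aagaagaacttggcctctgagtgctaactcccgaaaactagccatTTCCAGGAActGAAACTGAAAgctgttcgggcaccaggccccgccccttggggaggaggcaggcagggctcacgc
Tgtp1: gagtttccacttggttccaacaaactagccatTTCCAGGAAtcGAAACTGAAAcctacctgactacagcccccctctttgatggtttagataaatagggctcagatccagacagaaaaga
Tgtp2: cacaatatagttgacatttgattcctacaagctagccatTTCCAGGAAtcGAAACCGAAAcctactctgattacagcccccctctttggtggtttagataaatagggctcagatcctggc
Irgm1: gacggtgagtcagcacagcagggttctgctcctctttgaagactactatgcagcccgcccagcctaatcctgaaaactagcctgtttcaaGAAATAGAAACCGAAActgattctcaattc
Gbp2: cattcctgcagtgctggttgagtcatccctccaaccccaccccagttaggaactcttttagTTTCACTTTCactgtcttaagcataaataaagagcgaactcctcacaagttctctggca
Gbp7: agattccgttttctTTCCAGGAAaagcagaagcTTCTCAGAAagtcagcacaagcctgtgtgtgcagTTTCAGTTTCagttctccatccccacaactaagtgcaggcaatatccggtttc

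Positions are those of a match's first base, counted from the start site with upstream bases negative. In Igtp the GAS letters began at -45 and the ISRE letters at -34, in Irgm2 at -75 and -64, in Tgtp1 at -88 and -77, and in Tgtp2 at -81 and -70. Irgm1 and Gbp2 held ISRE letters alone, those of Gbp2 on the opposite strand. Gbp7 held the GAS letters at -106 and -87 and the ISRE letters at -53, the latter on the opposite strand. The window of Ifi47, another Irg gene, held neither.

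ISRE letters in tandem, which Irgm1 also holds, are shown by the Ifit1, Isg15 and Oas1a promoters, and Irf1 shows the GAS letters alone. These stretches lie at chr19:34640769-34640888 (Ifit1, plus strand), chr4:156200819-156200938 (Isg15, minus), chr5:120907526-120907645 (Oas1a, minus) and chr11:53769894-53770013 (the first of the Irf1 windows, plus).
Ifit1: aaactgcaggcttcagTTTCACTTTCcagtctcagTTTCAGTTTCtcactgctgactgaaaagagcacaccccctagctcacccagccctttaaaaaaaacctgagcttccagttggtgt
Isg15: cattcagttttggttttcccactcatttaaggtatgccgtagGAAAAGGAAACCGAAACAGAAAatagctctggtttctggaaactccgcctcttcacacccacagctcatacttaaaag
Oas1a: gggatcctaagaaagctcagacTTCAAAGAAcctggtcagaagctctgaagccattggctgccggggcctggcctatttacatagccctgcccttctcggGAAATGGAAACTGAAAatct
Irf1: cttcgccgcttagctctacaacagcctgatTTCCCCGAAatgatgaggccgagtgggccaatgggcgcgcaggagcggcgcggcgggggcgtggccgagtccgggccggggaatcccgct

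Isg15 held 3 overlapping ISRE matches, which began at -78, -72 and -66. Ifit1 held 2 separate ones at -104 and -85, on the opposite strand. Oas1a held 2 overlapping ones at -20 and -14, with the GAS letters apart from them at -98. In the map of motif positions these 4 Irg genes show a GAS match shortly before an ISRE match. Bst2 (GAS at -136, ISRE at -130 and -124) and Ifitm3 (GAS at 14, ISRE at 20) also held a GAS match just before an ISRE match, at another spacing and overlapping it.

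**Figure D1:**
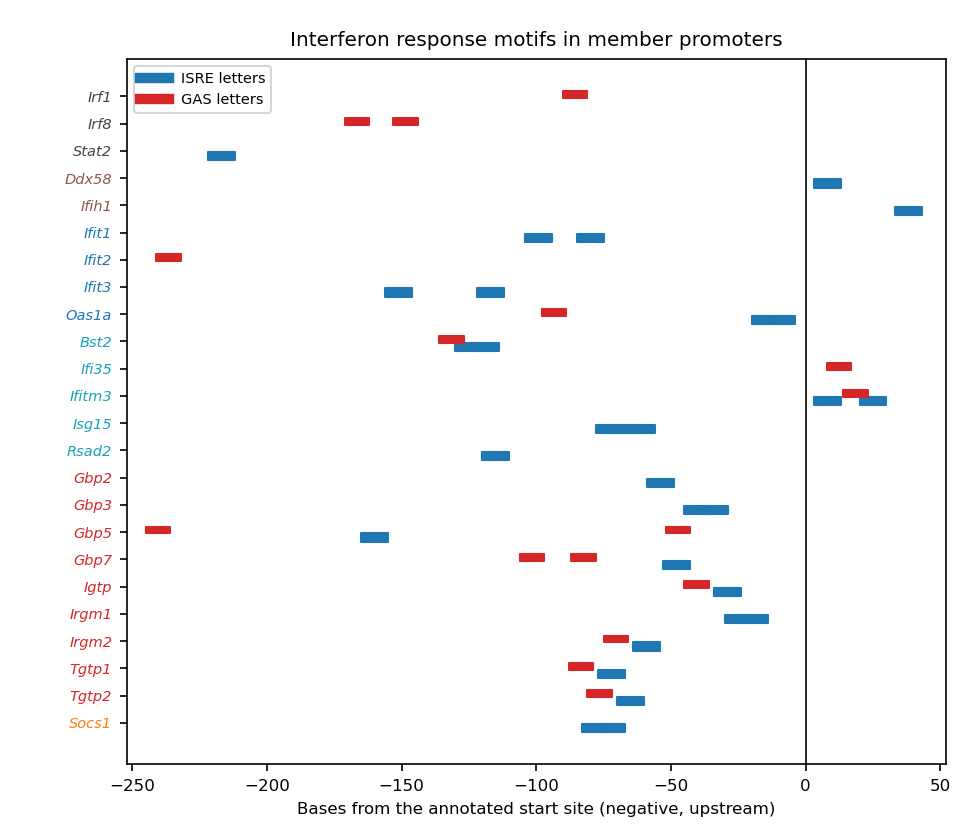
Positions of ISRE letters (blue) and GAS letters (red) in the promoter windows of the 24 members that held either, as bases from the annotated start site, with gene names coloured by role. In Igtp, Irgm2, Tgtp1 and Tgtp2 the GAS match begins 11 bases before the ISRE match.

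The comparison of CKO with Ctrl asked whether interferon-induced genes differ between luminal cells with the cluster deleted and intact. Among the measured members, 3 were higher in CKO by 1.5-fold or more and 0 lower by as much. The 3 were Ido1 (an enzyme that breaks down tryptophan), the Irg GTPase gene Ifi47 and the transcription factor gene Irf8. Most measured Gbp and Irg genes had ratios a little above 1, and the 4 measured Ifit and Oas genes a little below 1. Ratios are CKO over Ctrl of FPKM with 0.5 added, and each carries a 95% counting interval of the estimated reads that covers counting error only. The intervals are computed without the added 0.5, which shrinks the printed ratios of weak genes. For Ifi47 the log2 ratio is 1.03 with the added 0.5 and 1.34 without it. Of all 11667 measured genes, 2.47% were higher by 1.5-fold or more and 3.15% lower by as much, against 3 and 0 of the 35 measured members. A ratio above 0 on the log2 scale was found in 16 of the 35, against 44.8% of all measured genes. The median log2 ratio was -0.02 over these members and -0.03 over all measured genes. The members as a whole were thus close to the background.

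Levels spanned a wide range and kept much the same order in both libraries. The antiviral membrane protein gene Ifitm3 came first, at 174.95 (Ctrl) and 173.51 FPKM (CKO), and held 26.7% and 25.2% of the summed FPKM of all members. Bst2, the tether that holds budding virus particles at the cell surface, followed at 66.55 and 67.34 FPKM. In Ctrl the next were Iigp1, Trim25, Gbp2 and Irf1, between 38.35 and 35.42 FPKM. Ido1 moved from rank 10 in Ctrl to rank 3 in CKO. There were 14 members above 10 FPKM in both libraries and 5 under 1 FPKM in both.

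**Figure D2:**
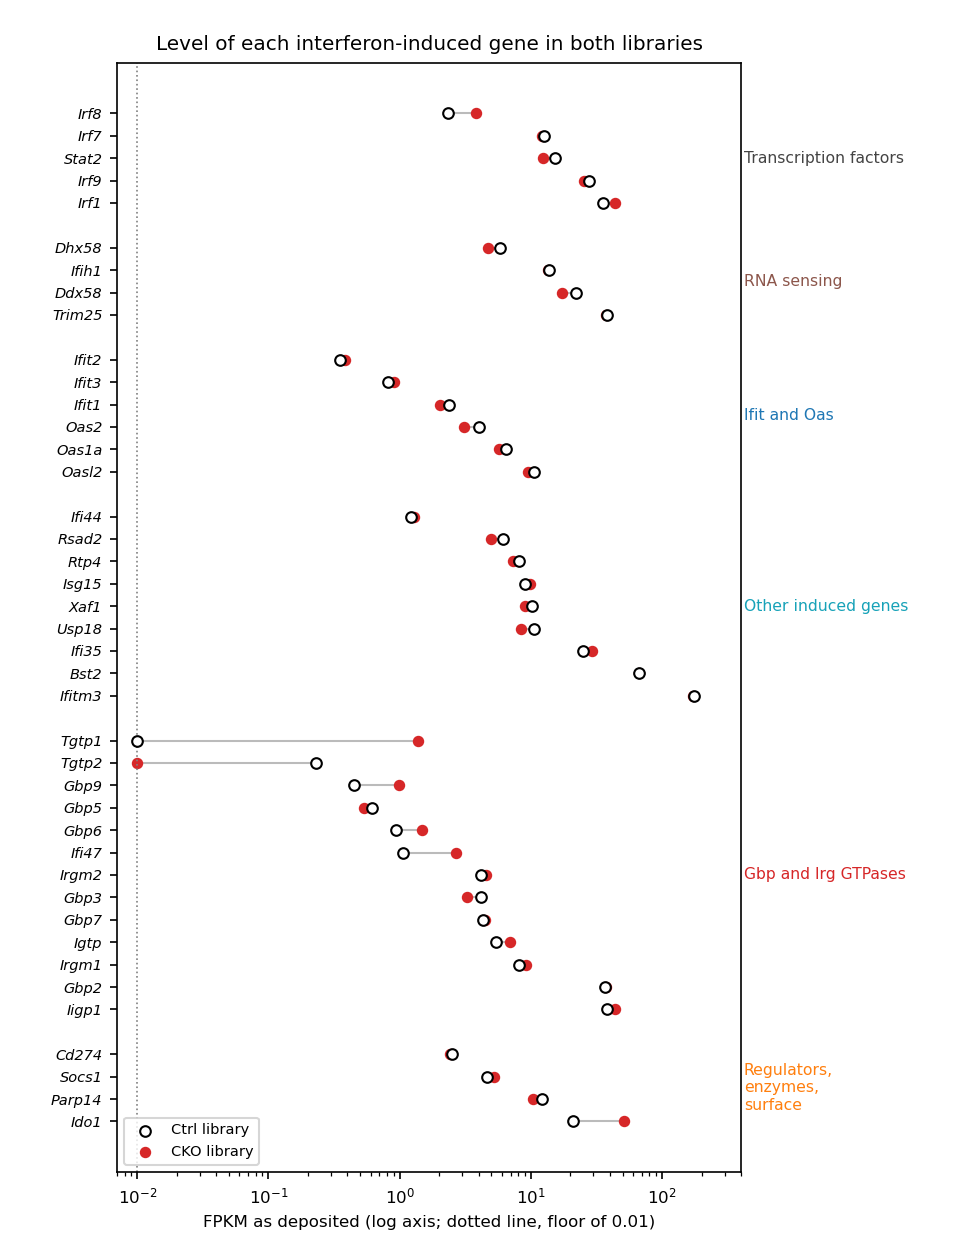
FPKM of each of the 41 members in the Ctrl library (open circles) and the CKO library (red circles) on a log axis, grouped by role. Most pairs of circles nearly coincide; Ido1 (20.99 and 51.67), Ifi47 (1.06 and 2.68), Irf8 (2.35 and 3.79), Gbp6, Gbp9 and the Tgtp pair are set apart.

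Receptors for every kind of interferon were expressed and differed little. The type I receptor genes Ifnar1 and Ifnar2 stood at 12.28 and 26.27 FPKM in Ctrl and 12.59 and 26.46 in CKO. The gamma receptor genes Ifngr1 and Ifngr2 stood at 40.85 and 32.22 FPKM in Ctrl and 46.96 and 33.81 in CKO. The lambda receptor gene Ifnlr1, whose product serves epithelia, was at 23.54 and 24.04 FPKM, and its partner Il10rb at 9.11 and 11.46. The log2 interval of the read ratio excluded 0 for Ifngr1 (0.08 to 0.32) and Il10rb (0.06 to 0.60), both toward CKO. It also excluded 0 for Jak1 (-0.24 to -0.11) and the STAT gene Stat3 (-0.15 to -0.07), both toward Ctrl. The receptor kinase gene Jak1 was at 66.15 and 58.57 FPKM, Jak2 at 28.56 and 27.9, and Tyk2 at 7.84 and 8.09. Of 11 receptor, kinase and STAT genes listed, all measured, 0 passed 1.5-fold in either direction.

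Ligand genes were at the edge of detection. Of 13 listed, 4 were analysed. Ifnb1, the interferon beta gene, had 0 reads in Ctrl and 1 in CKO; Ifnz had 5 and 4, and Il27, a cytokine gene, also 5 and 4. Il15, a cytokine for lymphocytes, was at 0.76 and 1.24 FPKM, from 13 and 19 reads (log2 interval -0.42 to 1.81). For these 4 genes no difference was detectable at this depth.

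Among the 5 transcription factors, 1 (Irf8) passed 1.5-fold, and the intervals of Irf1 and Stat2 excluded 0 in opposite directions at smaller ratios. Irf1, the early factor through which interferon gamma reaches many targets, was at 35.42 (Ctrl) and 43.44 FPKM (CKO), with a log2 ratio of 0.29 (0.17 to 0.42). Irf8, a factor best known from myeloid and B cells, was at 2.35 and 3.79 FPKM, from 84 and 124 estimated reads, a log2 ratio of 0.59 (0.28 to 1.11). At 1.51-fold it lay just past the limit. Stat2, the subunit of the type I complex that gamma signalling does not need, was at 15.41 and 12.27 FPKM, with a log2 ratio of -0.32 (-0.48 to -0.18). Its partner Irf9 stood at 27.62 and 25.35 FPKM and Irf7, which amplifies interferon alpha production, at 12.68 and 12.23. The intervals of Irf9 (-0.27 to 0.02) and Irf7 (-0.30 to 0.20) both held 0.

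Markers of myeloid and dendritic cells stood beside Irf8 as follows. Of 15 listed, 14 were analysed, with 8 log2 ratios above 0, 6 below and a median of 0.06. Of the 7 that were measured, 5 had a log2 ratio above 0, with a median of 0.22, where 44.8% of all measured genes lay above 0. C1qa was higher and C1qc lower by at least 1.5-fold, but from 12 and 21 and from 17 and 7 reads, with intervals that held 0. The intervals of Lyz2 (0.07 to 1.09) and Cd14 (0.18 to 0.27) excluded 0 toward CKO. The summed FPKM of the 14 markers was 420 in Ctrl and 490 in CKO, of which Cd14 alone held 400.62 and 467.65. No other marker of the list was above 8.49 FPKM in Ctrl or 9.97 in CKO, and which cells the Cd14 reads came from was not tested. Without Cd14, a choice made after its level was seen, the sums were 19.2 and 22.7. The log2 interval of their summed reads was -0.03 to 0.40, which holds 0. The leukocyte gene Ptprc was at 0.21 and 0.23 FPKM, and Siglech, a plasmacytoid dendritic cell marker, was listed at the floor in Ctrl and had 7 reads in CKO, at least 2.55-fold higher. Xcr1, with 7 reads in Ctrl and 1 in CKO, and Itgam, with 30 and 19, ran the other way, with intervals that held 0. Ptprc, Siglech, Xcr1 and Itgam were all under the minimum level. Irf5, another factor of myeloid cells and the 1 measured gene of the pathway lists past 1.5-fold, was at 4.66 and 7.29 FPKM (log2 ratio 0.59, 0.31 to 0.99). The part of myeloid cells in the Irf8 and Irf5 differences was not tested.

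The Gbp genes encode guanylate-binding proteins, large GTPases that coat and break pathogen vacuoles. Gbp2, the most abundant, was at 36.88 (Ctrl) and 37.52 FPKM (CKO), with a log2 ratio of 0.02 (-0.10 to 0.15). Gbp7 was at 4.34 and 4.47 FPKM, Gbp3 at 4.2 and 3.28, and Gbp5, which also promotes inflammasome assembly, at 0.62 and 0.53. None of these 4 had an interval that excluded 0. Gbp6 was at 0.93 and 1.47 FPKM, from 52 and 75 reads, a log2 ratio of 0.46 (0.13 to 1.20). Gbp9 was at 0.45 and 0.98 FPKM, from 27 and 54 reads, 0.64 (0.44 to 1.85) on the same scale.

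The Gbp members lie in 2 clusters. Gbp2, Gbp3, Gbp5 and Gbp7 lie together on chromosome 3, from 142496934 to 142638008 of GRCm38.p6, and their summed FPKM was 46.0 in Ctrl and 45.8 in CKO. Gbp6 and Gbp9 lie on chromosome 5, between 105076464 and 105295871, and summed to 1.38 and 2.45 FPKM. With Gbp4, Gbp8 and Gbp10 of the same cluster, which are not members, the sums were 1.76 and 3.18 FPKM, of which Gbp10 had 0 and 1 reads. None of these 9 genes was both measured and past 1.5-fold. The grouping was made after the values were seen, the chromosome 5 genes were weakly expressed, and their reads are hard to assign. Of the 31-base stretches of the longest annotated Gbp6 transcript, 64.4% also occur in transcripts of other genes, and of Gbp9 18.8%.

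The Irg genes encode immunity-related GTPases, of which Irgm1, Irgm2 and Igtp regulate the others. Iigp1, which loads onto parasite vacuoles, was the most abundant at 38.35 (Ctrl) and 43.69 FPKM (CKO), with a log2 ratio of 0.19 (0.08 to 0.29). With Gbp2 it held 71.8% of the summed FPKM of the Gbp and Irg members in Ctrl and 69.5% in CKO. Igtp was at 5.39 and 6.95 FPKM, with a log2 ratio of 0.34 (0.03 to 0.70). Irgm1 was at 8.19 and 9.23 FPKM and Irgm2 at 4.18 and 4.59, and both intervals held 0. The 5 measured Irg members were all above 0 on the log2 scale, from 0.12 to 1.03.

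Ifi47 and the Tgtp pair, neighbours on chromosome 11, had the largest ratios of the Gbp and Irg members. This grouping by position was made after the values were seen. Nearby, Irgm1 (48865245 to 48871420) and the locus 9930111J21Rik1 (48946150 to 48979381, with 37 reads in each library) had intervals that held 0. Ifi47 (49076587 to 49096987) was at 1.06 (Ctrl) and 2.68 FPKM (CKO), from 23 and 53 reads. Its log2 ratio was 1.03 with an interval of 0.60 to 2.11, and its false discovery rate in the authors' deposited table, which compares the reads of the 2 libraries, was 0.00112. Tgtp1 (48985329 to 48992246) was listed at the floor of 0.01 in Ctrl and at 1.37 FPKM in CKO, with 0 and 44 reads, at least 16-fold higher against the limit of 3 reads that a count of 0 allows in a library. Tgtp2 (49057196 to 49064212) ran the other way, at 0.23 FPKM with 8 reads in Ctrl and at the floor in CKO.

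The Tgtp genes are near-identical copies, and 92.9% of the 31-base stretches of the Tgtp1 transcript occur in Tgtp2. Reads of these copies could have been split between them in either way, so the single values are uncertain. Summed, the pair had 8 reads in Ctrl and 44 in CKO, or 6.01-fold more after scaling to depth (log2 interval 1.48 to 3.89). Their sum was thus higher in CKO, whichever copy the reads came from.

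The Ifit genes encode proteins that bind foreign RNA ends, and the Oas genes encode oligoadenylate synthetases that switch on RNA decay. Oasl2 was the most abundant at 10.63 (Ctrl) and 9.56 FPKM (CKO), with a log2 ratio of -0.15 (-0.39 to 0.08). Oas1a was at 6.45 and 5.69 FPKM and Oas2 at 4.03 and 3.11, the latter with a log2 ratio of -0.33 (-0.71 to -0.05). Oas3, a neighbour of Oas2 on the pathway list, was at 5.41 and 3.7 FPKM, with a log2 ratio of -0.49 (-0.81 to -0.29). Ifit1 was at 2.37 and 2.02 FPKM, Ifit3 at 0.82 and 0.91, and Ifit2 at 0.35 and 0.38, with all 3 intervals holding 0. Read assignment is uncertain for Oas1a, which shares 68% of its stretches with Oas1g, and for Ifit3, which shares 61.8% with Ifit3b. Oas1g and Ifit3b stood at 1.27 and 0.2 FPKM in Ctrl and 1.44 and 0.51 in CKO.

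Set side by side, the gamma-type family (Gbp and Irg) and the type I family (Ifit and Oas) had medians on opposite sides of 0. Of 9 measured gamma-type genes, 8 were above 0, 1 (Ifi47) past 1.5-fold, and the median log2 ratio was 0.16. Of 4 measured type I genes, 0 were above 0, 0 past 1.5-fold, and the median was -0.18. Across all measured genes, 44.8% were above 0, 2.47% higher and 3.15% lower by 1.5-fold or more, with a median of -0.03. The summed FPKM of all 13 gamma-type genes was 105 in Ctrl and 117 in CKO, and the summed reads gave a log2 ratio of 0.15 (0.09 to 0.22). The summed FPKM of the 6 type I genes was 24.6 and 21.7, and their reads gave -0.20 (-0.36 to -0.05). Each family was uneven within. The Irg members' reads gave 0.24 (0.15 to 0.33), while the Gbp members' gave 0.05 (-0.05 to 0.15), an interval that holds 0. The Oas members' reads gave -0.22 (-0.39 to -0.05), and the Ifit members' -0.10 (-0.49 to 0.31), which also holds 0. Of all 6 analysed type I genes, 2 were above 0, both under the minimum level. The intervals of the summed families do not overlap, but whether the families differ between animals was not tested, since there was 1 library per group. Differences were small: the upper and lower deciles of all measured genes were 0.28 and -0.36, and 6 of 9 gamma-type and 4 of 4 type I genes lay between these values.

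**Figure D3:**
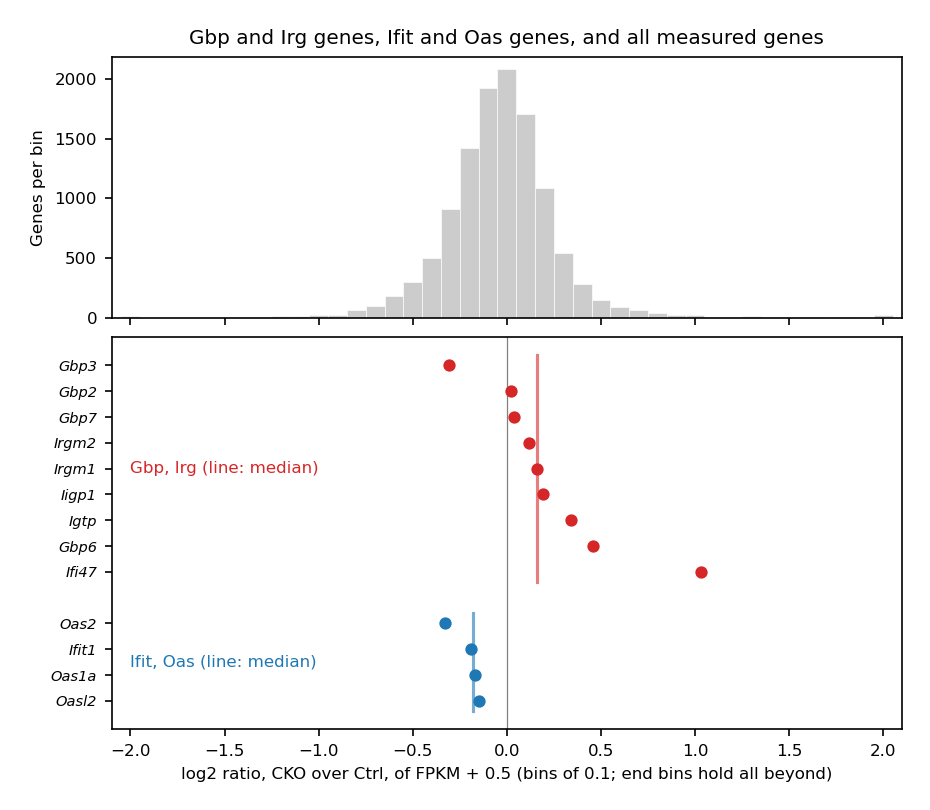
Upper panel, number of genes by log2 ratio (CKO over Ctrl) for all 11667 measured genes; lower panel, the 9 measured Gbp and Irg genes (red) and the 4 measured Ifit and Oas genes (blue), with vertical lines at the family medians of 0.16 and -0.18. Of the red points, 8 lie above 0, and of the blue points 0 do.

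The 3 RNA sensors and the ligase Trim25 were all within 1.5-fold. Their log2 ratios were below 0 in 4 of 4, where 44.8% of all measured genes lay above 0, and 1 interval (Ddx58) excluded 0. Ddx58, which senses the ends of viral RNA, was at 22.03 (Ctrl) and 17.14 FPKM (CKO), with a log2 ratio of -0.35 (-0.48 to -0.24), the lowest of all 35 measured members. Dhx58, a related helicase that tunes the others, was at 5.78 and 4.68 FPKM (-0.28, -0.64 to 0.03). Ifih1, the sensor of long RNA duplexes, was at 13.73 and 13.54 FPKM, although its deposited p-value implies a log2 read ratio of -0.19 and not the -0.02 of its FPKM. Trim25, the ubiquitin ligase that activates the Ddx58 protein, was at 38.3 and 37.62 FPKM, with an interval of -0.11 to 0.05. Of 13 genes of nucleic acid sensing outside the members, 1 was higher (Irf5) and 0 lower; the kinase gene Ikbke was at 3.03 and 2.02 FPKM (-0.49, -1.02 to -0.14).

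Other antiviral genes were close to equal, and 0 of 9 passed 1.5-fold. Usp18, which removes the ISG15 tag and dampens the type I receptor, was at 10.64 (Ctrl) and 8.45 FPKM (CKO) (log2 ratio -0.32, -0.62 to -0.04). Rsad2, which makes a chain terminator for viral RNA, was at 6.12 and 4.94 FPKM (-0.28, -0.57 to -0.05). Ifi35 was at 24.97 and 29.4 FPKM (0.23, 0.04 to 0.43). Isg15, the ubiquitin-like tag itself, was at 9.09 and 9.93 FPKM, and the intervals of Isg15, Xaf1 (10.25 and 9.02 FPKM), Rtp4 (8.17 and 7.26) and Ifi44 (1.23 and 1.28) held 0. Ifitm3 and Bst2, the most abundant members, had log2 ratios of -0.01 (-0.12 to 0.10) and 0.02 (-0.14 to 0.17).

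Ido1 had the largest ratio of the measured members. It stood at 20.99 (Ctrl) and 51.67 FPKM (CKO), with a log2 ratio of 1.28, or 2.43-fold, with a counting interval of 1.13 to 1.47. The authors' deposited table calls it up, with a false discovery rate of 6.48e-52. Of the 41 members that table calls 2 up, Ido1 and Tgtp1, and 0 down, against 104 up and 108 down of all 16906 genes. The read ratio that the deposited p-value of Ido1 implies is not given, since the calculation could not resolve p-values this small. The estimated reads are built from FPKM and the table's gene length, and the counting interval rests on them. Among other members where the implied read ratio and the FPKM ratio could be compared, Ifih1 and Xaf1 differed by at least 0.1 in log2.

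The other regulators and surface genes that interferon gamma often induces were within 1.5-fold. Cd274, which encodes the checkpoint ligand PD-L1, was at 2.52 and 2.44 FPKM (log2 ratio -0.04, -0.44 to 0.35). Socs1, the feedback inhibitor of the JAK kinases, was at 4.6 and 5.23 FPKM (0.17, -0.30 to 0.67). Parp14, an ADP-ribosyltransferase gene, was at 12.18 and 10.39 FPKM (-0.22, -0.36 to -0.10). Of 10 further inhibitors of the pathway, 0 passed 1.5-fold; the most abundant, Socs3 and Ptpn1, were at 202.15 and 74.94 FPKM in Ctrl and 189.63 and 76.65 in CKO.

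**Figure D4:**
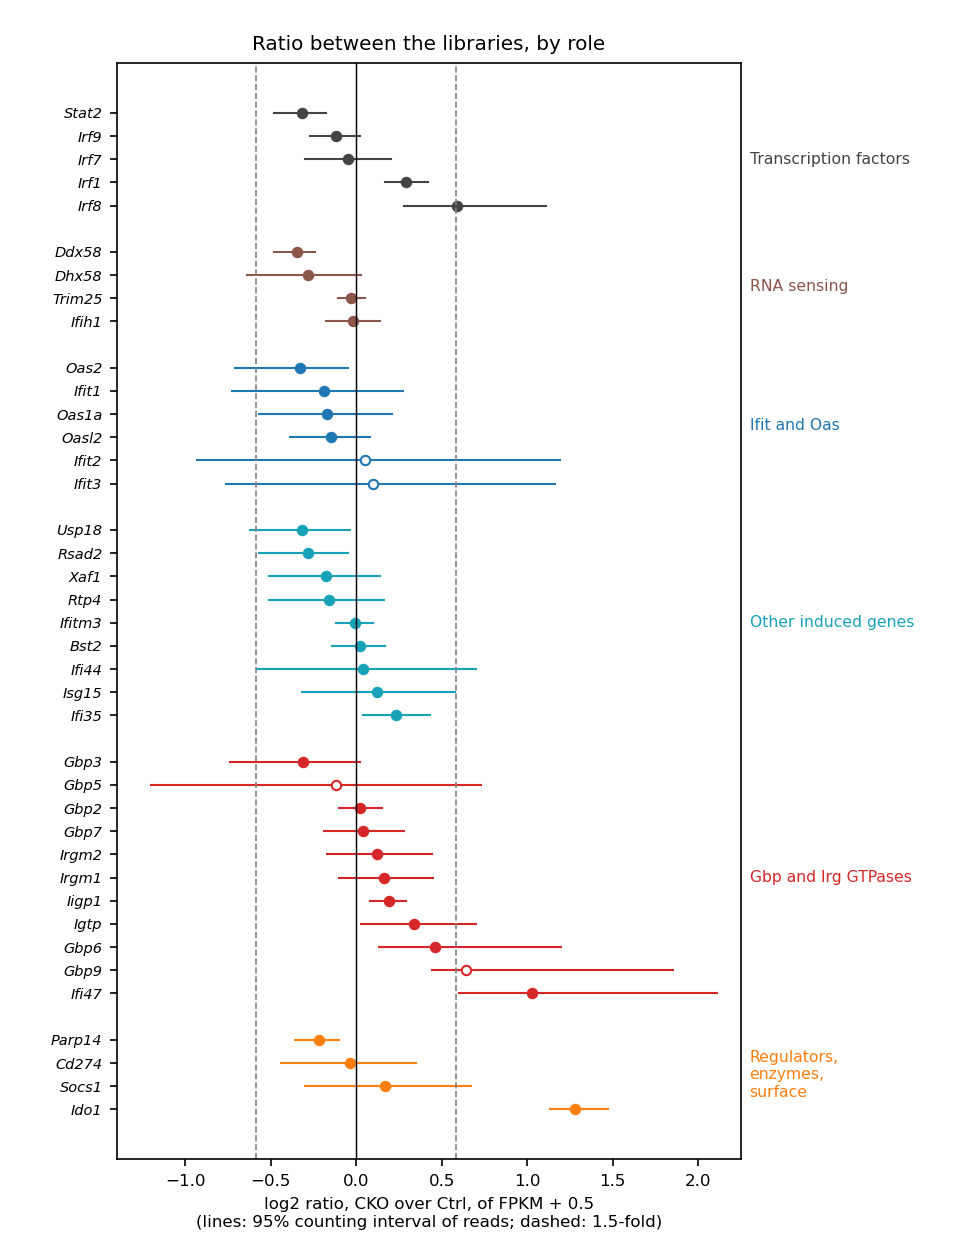
log2 ratio (CKO over Ctrl, FPKM with 0.5 added) of 39 members by role, with 95% counting intervals of the estimated reads, which are computed without the added 0.5; open points are genes under a mean of 1 FPKM and dashed lines mark 1.5-fold. Ido1 (1.28), Ifi47 (1.03) and Irf8 (0.59) are the measured genes past 1.5-fold; Tgtp1 and Tgtp2, each at the floor in 1 library, are left out.

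Further interferon-induced genes from the pathway list were close to equal too. Of 45 listed, 42 were analysed and 33 measured, with 0 past 1.5-fold in either direction, 14 above 0 and 19 below, and a median of -0.03. The most abundant were Ly6e, at 1136.98 (Ctrl) and 1156.33 FPKM (CKO), and Ifitm2, at 195.81 and 200.42. The largest log2 ratios were those of Oas3 (-0.49, given above) and Trim30a, at 6.8 and 4.7 FPKM (-0.49, -0.80 to -0.28). Toward CKO the largest was Sp110, a nuclear body gene, at 3.83 and 5.45 FPKM (0.46, 0.10 to 0.91). Gvin1, a very large interferon-induced GTPase gene under the minimum level, had 0 reads in Ctrl and 19 in CKO, at least 6.92-fold higher against 3 reads.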

How the data were processed

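RNA of sorted luminal cells was sequenced by the submitters as 1 low-input library per group. The submitters' processing notes name HISAT, Bowtie2, RSEM and mm10, with no versions. The deposited expression columns have no stated unit; times gene length they summed to 999609 (Ctrl) and 999909 (CKO), as FPKM do, and none was below 0.01. The deposited log2 value is the ratio of these FPKM. The deposited false discovery rate and the p-value under it are from a Poisson method, as the deposited table's title says, in which the authors set 1 library against the other.

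The members and lists were chosen with earlier results of these data known. Every member is named; of each pathway list the 2 most abundant genes, those with the largest ratio and all receptors, kinases and ligands could be named. Genes outside this rule are given as chosen after their values were seen. Among the markers they are Kit, Krt18, Trp63, Lum, Pdgfra, Lyz2, C1qa, C1qc, Ptprc, Siglech, Xcr1, Itgam and Cd14. The others are Gbp4, Gbp8, Gbp10, Oas1g, Ifit3b, Sp110, Gvin1, Gm12185 and 9930111J21Rik1.

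log2 ratios used FPKM with 0.5 added and no further scaling. Genes with a mean of at least 1 FPKM counted as measured, and at least 1.5-fold as higher or lower. With 1 library per group no test across samples was possible and no p-value was computed. Reads were estimated as FPKM times kilobases times the library total. The totals were fitted to the p-values of 8519 genes (the median gap to them was 0.0753 in log10 units); for genes at the floor in 1 library the p-value gave the reads directly, whole within 0.05 for 1420 of 1480. Intervals are 95% Clopper-Pearson intervals of the read ratio, and PCR copies are not independent molecules. The depth fit and the counting interval were tested on simulated libraries, and the motif search on made sequences. The simulated counts followed the same Poisson model that the fit assumes, so that test covers neither PCR copies nor reads shared between similar genes. Coordinates and promoters are from RefSeq on GRCm38.p6, the same assembly as mm10; the ends of the windows were found in GENCODE M21 transcripts of the same gene for 28 of 32 members. Python 3.11.15, NumPy 2.4.6, pandas 2.3.3 and SciPy 1.17.1 were used. Alternatives for the added FPKM, the minimum, the fold, the scaling, the length division and the Tgtp pair are given at the end.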

Additional observations from a re-analysis of the deposited data

How the results depend on the processing

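The count of 3 members higher in CKO depended on how weak genes were treated. With no minimum it was 5, adding Gbp9 and Tgtp1; with a minimum mean of 5 FPKM it was 1, Ido1; and with estimated reads scaled to library size and not divided by length it was 6, adding Gbp6, Gbp9 and Tgtp1. With 1 FPKM added in place of 0.5 it was 2, without Irf8. The count of members lower in CKO was 0 under each of the 10 alternatives run for it. The median of the gamma-type genes stayed between 0.14 and 0.19 and that of the type I genes between -0.20 and -0.15. The summed levels stayed between 0.14 and 0.18 and between -0.21 and -0.16. The alternatives that sum or leave out Tgtp1 and Tgtp2 were chosen after seeing the data. No paired analysis was possible because each group had 1 library. Depth limits the Tgtp2, Ifit2, Ifit3, Gbp5 and ligand values, each from at most 23 reads per library.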

Other observations

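Genes whose deposited description names interferon or an interferon-induced GTPase, and which stood on no list here, were looked up after the other values were seen. Of 29 such genes, 14 were measured; 0 were 1.5-fold higher, 0 lower, and 10 of the 14 log2 ratios lay below 0. Irgq, a distant relative of the Irg GTPases that acts in autophagy, was at 62.02 and 49.64 FPKM (-0.32, -0.38 to -0.26), on the other side of 0 from the 5 measured Irg members. The GTPase locus F830016B08Rik was at 4.6 and 3.35 FPKM (-0.41, -0.76 to -0.15).

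The interferon zeta loci gave unlike values at low depth. Gm13278 had 16 reads in Ctrl and 0 in CKO, at least 4.88-fold lower against 3 reads, while Gm13276 had 3 and 12 and Ifnz 5 and 4. These loci belong to a family of similar copies, and which copy the reads came from was not tested.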
